A study of Mus musculus with 17 samples.

Results

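Eph receptors and their ephrin ligands were measured in LGR5hi and LGR5lo cells of the mouse intestine, 3 hours after 12 Gy of gamma-irradiation or without it. The set holds 10 genes: the receptors Ephb2, Ephb3, Ephb4, Ephb6, Epha2 and Epha4, and the ligands Efnb1, Efnb2, Efna1 and Efna4. They were found by gene name among the probes of the array, which gave 13 probes of 55681, and the 10 genes stand among 35019 gene names. All 13 probes passed the filter on dim probes, against 41444 of 55681 in all.

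Eph receptors are a large family of receptor tyrosine kinases that bind ephrins on the surface of neighbouring cells. A-class ephrins are held in the membrane by a lipid anchor and B-class ephrins span it, and both receptor and ligand can signal into their own cell. In intestinal crypts, WNT signalling through beta-catenin and TCF drives Ephb2 and Ephb3 in cells near the base, while ephrin-B ligands are more abundant towards the villus, and the repulsion between the opposed gradients keeps cell types in place.

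RNA came from cells sorted by flow cytometry from LGR5-GFPki mice, whose cells carry a green fluorescent reporter of Lgr5, the R-spondin receptor that marks cycling stem cells at the crypt base. All groups share this genotype. The groups were irradiated LGR5hi (n = 4), non-irradiated LGR5hi (n = 4), irradiated LGR5lo (n = 4) and non-irradiated LGR5lo (n = 5), each with 2 arrays from females and the rest from males. The ages of the mice are not given in the sources used here, and the labels do not say whether each array came from its own mouse, so p-values measure the spread between these samples.

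Values are log2 signals relative to the 75th percentile of each array, which lay between 286 and 627 intensity units on the 16 arrays with a whole scanner file. A value of 0 therefore equals that percentile, and levels of different probes cannot be set against each other. Differences carry the standard error of a limma fit over 27771 genes, and a difference is called where its Benjamini-Hochberg adjusted p over all of them is under 0.05. Statements that groups overlap or not only describe the arrays of a gene. The share of all genes whose groups do not overlap was not counted. Nor was the share whose same-numbered LGR5hi and LGR5lo arrays all differ in the same direction, so counts of such pairs are descriptions too. In the non-irradiated LGR5lo group, 2 arrays differed from the rest. On non-irradiated LGR5lo replicate 2, 95.6% of probes were well above background, against 58.0% to 73.5% on the 15 other whole arrays, and its spike-in slope was 0.791. For replicate 4 a spike-in slope of 0 is recorded, against 0.946 to 1.005 on the 15 arrays other than these 2. The values of non-irradiated LGR5hi replicate 1 were rebuilt from the deposited series table. The p53 targets Ccng1, Mdm2 and Cdkn1a all rose after 12 Gy in both sorts, by 4.03 ± 0.18, 3.15 ± 0.29 and 4.91 ± 0.31 log2 in LGR5hi cells. Lgr5 itself was higher in LGR5hi than in LGR5lo cells, by 2.89 ± 0.29 log2 after 12 Gy and by 3.14 ± 0.28 log2 without irradiation.

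The upstream sequences of the 4 genes that moved with irradiation in both sorts are shown first, since the study asks what the dose does to their RNA. Each is the 250 bases before the RefSeq start of the gene (GRCm38.p6), written on the gene's strand. Capitals mark matches on either strand to the letters CTTTGAA or CTTTGAT, bound by TCF factors, to TGANTCA, bound by AP-1, to GGGCGG, the GC box bound by Sp1, or to the p53 decamer or the CArG box bound by serum response factor, searched by their consensus.
Epha2, chr4:141300971-141301220, + strand: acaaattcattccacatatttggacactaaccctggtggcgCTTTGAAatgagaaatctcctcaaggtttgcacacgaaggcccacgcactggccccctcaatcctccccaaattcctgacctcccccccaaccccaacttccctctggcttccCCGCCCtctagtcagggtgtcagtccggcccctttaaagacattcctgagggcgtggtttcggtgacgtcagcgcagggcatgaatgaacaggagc
Epha4, chr1:77515089-77515338, - strand: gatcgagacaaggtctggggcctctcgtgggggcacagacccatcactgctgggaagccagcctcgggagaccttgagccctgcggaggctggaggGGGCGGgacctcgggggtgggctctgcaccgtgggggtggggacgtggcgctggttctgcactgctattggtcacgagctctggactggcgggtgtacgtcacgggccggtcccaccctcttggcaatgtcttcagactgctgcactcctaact
Efnb2, chr8:8661243-8661492, - strand: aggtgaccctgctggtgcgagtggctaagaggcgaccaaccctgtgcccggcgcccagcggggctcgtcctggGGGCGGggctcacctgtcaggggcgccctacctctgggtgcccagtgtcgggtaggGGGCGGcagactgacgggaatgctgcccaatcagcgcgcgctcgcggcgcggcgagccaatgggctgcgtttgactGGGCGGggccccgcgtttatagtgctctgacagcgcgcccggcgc
Ephb4, chr5:137349859-137350108, + strand: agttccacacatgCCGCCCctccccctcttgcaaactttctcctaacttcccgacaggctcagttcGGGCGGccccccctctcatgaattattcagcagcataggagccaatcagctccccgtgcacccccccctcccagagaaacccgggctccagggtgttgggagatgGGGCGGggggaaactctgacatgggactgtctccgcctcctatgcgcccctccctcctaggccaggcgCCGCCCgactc
The Epha2 window held 1 CTTTGAA, at position -209 from the start, and 1 GC box. The Epha4 window held 1 GC box, that of Efnb2 held 3, and that of Ephb4 held 4. None of these 4 windows held a match to the p53 decamer, the CArG box or the AP-1 letters. Over 32841 windows of the same length, 4.5% held CTTTGAA, 3.2% CTTTGAT, 6.8% the AP-1 letters, 32.7% the GC box, 7.1% the p53 decamer and 1.5% the CArG box. Of the other members, Efna4 had 1 match to the p53 decamer, at position -89 from its start. A match is a run of letters, not a bound site.

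**Figure D1:**
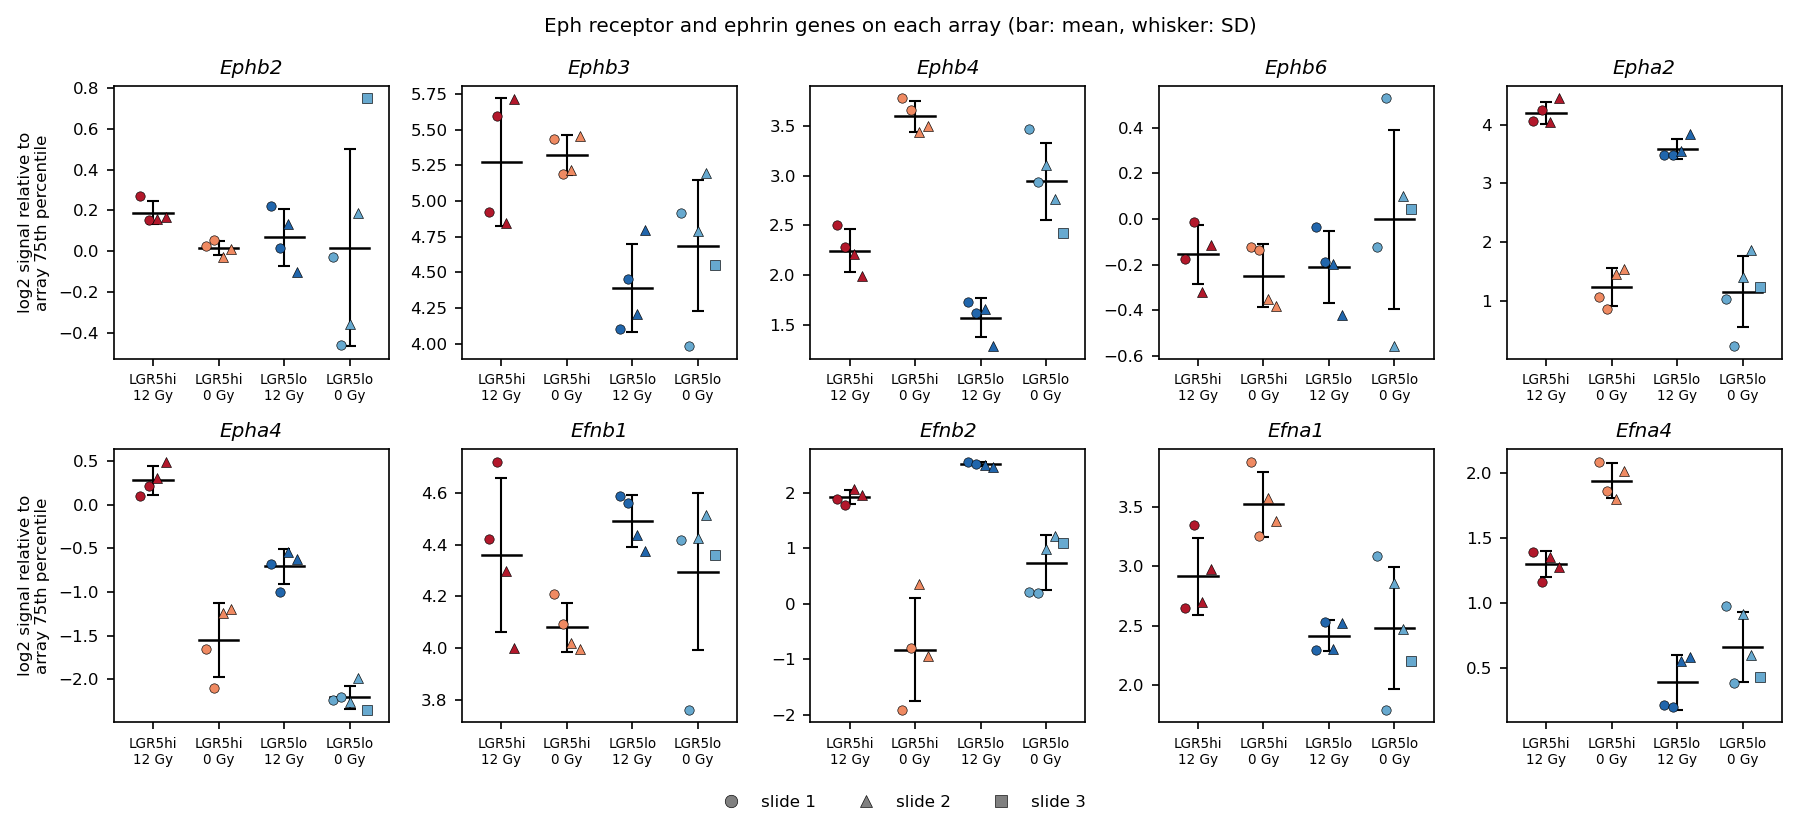
Log2 signal of each Eph and ephrin gene relative to the array's 75th percentile, 1 point per array, for irradiated and non-irradiated LGR5hi cells and irradiated and non-irradiated LGR5lo cells. Bars are group means, whiskers are standard deviations and the point shape gives the slide. Epha2, Epha4 and Efnb2 sat higher on every irradiated array than on any non-irradiated array of the same sort, and Ephb4 sat lower. How many of all genes separate in this way was not counted.

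To determine which Eph and ephrin genes responded to 12 Gy, irradiated cells were compared with non-irradiated cells within each sort. In LGR5hi cells 3 of the 10 members rose (Epha2, Efnb2 and Epha4) and 2 fell (Ephb4 and Efna4), against 6.18% of all genes called higher and 7.28% called lower (13.5% in either direction). In LGR5lo cells the same 3 rose and Ephb4 fell, against 4.47% of all genes called higher and 3.02% called lower (7.49% in either direction). The members' median difference was 0.13 log2 in LGR5hi cells, where that of all genes was -0.02, and -0.01 in LGR5lo cells, where that of all genes was -0.13. Changes in bulk RNA of sorted cells do not separate fewer cells of a type from less RNA per cell.

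Epha2, a receptor of epithelial junctions that binds A-class ephrins, had the largest difference of the members in both sorts. In LGR5hi cells its log2 signal was 4.06, 4.25, 4.05 and 4.45 on irradiated arrays, against 1.07, 0.87, 1.47 and 1.55 on non-irradiated ones. In LGR5lo cells it was 3.48, 3.48, 3.56 and 3.84 on irradiated arrays, against 1.04, 0.23, 1.42, 1.88 and 1.24 on non-irradiated ones. All 8 irradiated arrays lay above all 9 non-irradiated ones. The difference was 2.96 ± 0.27 log2 (SE) in LGR5hi cells, a 7.79-fold rise (95% interval 5.24 to 11.6; adjusted p = 2.14e-06 by limma). In LGR5lo cells it was 2.43 ± 0.26 log2, a 5.39-fold rise (95% interval 3.70 to 7.86; adjusted p = 2.05e-05 by limma). Within slide 1 the difference was 3.18 log2 in LGR5hi and 2.84 in LGR5lo cells, and within slide 2 it was 2.74 in LGR5hi and 2.05 in LGR5lo cells.

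Epha4, a receptor of both A-class and B-class ephrins, rose in both sorts. In LGR5hi cells its log2 signal was 0.10, 0.22, 0.31 and 0.49 on irradiated arrays, against -1.66, -2.10, -1.24 and -1.20 on non-irradiated ones. In LGR5lo cells it was -0.67, -0.997, -0.54 and -0.62 on irradiated arrays, against -2.23, -2.20, -2.26, -1.99 and -2.35 on non-irradiated ones. The irradiated and non-irradiated groups did not overlap in either sort. The difference was 1.83 ± 0.19 log2 in LGR5hi cells (3.55-fold; adjusted p = 6.84e-06 by limma) and 1.4996 ± 0.18 log2 in LGR5lo cells (2.83-fold; adjusted p = 6.42e-05 by limma). Within slides 1 and 2 it was 2.04 and 1.62 log2 in LGR5hi cells, and 1.38 and 1.55 log2 in LGR5lo cells.

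Ephb4, the receptor that binds ephrin-B2 and is known for marking veins, fell by about the same amount in both sorts. In LGR5hi cells its log2 signal was 2.50, 2.28, 2.22 and 1.99 on irradiated arrays, against 3.77, 3.66, 3.44 and 3.50 on non-irradiated ones. In LGR5lo cells it was 1.73, 1.62, 1.67 and 1.29 on irradiated arrays, against 3.46, 2.94, 3.11, 2.77 and 2.43 on non-irradiated ones. Neither pair of groups overlapped. The difference was -1.34 ± 0.20 log2 in LGR5hi cells (adjusted p = 0.000199 by limma) and -1.36 ± 0.19 log2 in LGR5lo cells (adjusted p = 0.000239 by limma). Within slides 1 and 2 it was -1.32 and -1.36 log2 in LGR5hi cells, and -1.52 and -1.46 log2 in LGR5lo cells. The second probe of Ephb4 fell too, by 1.19 ± 0.18 log2 in LGR5hi and by 0.97 ± 0.17 log2 in LGR5lo cells. When arrays were centred on their medians, the first probe gave -1.36 (adjusted p = 0.0551) in LGR5hi and -0.83 (adjusted p = 0.24) in LGR5lo cells, so both calls were lost.

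Efnb2, the transmembrane ligand ephrin-B2, rose in both sorts. In LGR5hi cells its log2 signal was 1.89, 1.78, 2.08 and 1.96 on irradiated arrays, against -1.91, -0.80, 0.35 and -0.93 on non-irradiated ones. In LGR5lo cells it was 2.56, 2.52, 2.50 and 2.47 on irradiated arrays, against 0.21, 0.20, 0.98, 1.22 and 1.09 on non-irradiated ones. The irradiated arrays of each sort lay within a narrow range above all non-irradiated ones, and the non-irradiated LGR5hi arrays were spread over more than any other group of this gene. The difference was 2.75 ± 0.35 log2 in LGR5hi cells (6.73-fold; adjusted p = 6.36e-05 by limma) and 1.77 ± 0.34 log2 in LGR5lo cells (3.42-fold; adjusted p = 0.00372 by limma). Without the rebuilt array, which was the lowest, the LGR5hi difference was 2.39 log2. Within slides 1 and 2 it was 3.19 and 2.31 log2 in LGR5hi cells, and 2.34 and 1.39 log2 in LGR5lo cells.

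The probes of Efnb2 disagree in size. The tested, brighter probe lies at chr8:8618177-8618236 and the dimmer one at chr8:8620426-8620485, both on the - strand in the mm9 coordinates of the file headers. The dimmer probe gave 0.89 ± 0.46 log2 (adjusted p = 0.284) in LGR5hi and 0.62 ± 0.43 log2 (adjusted p = 0.37) in LGR5lo cells by limma over all kept probes. It read -3.37 to -2.54 on irradiated and -4.72 to -2.98 on non-irradiated LGR5hi arrays, which overlap. The rise of Efnb2 therefore rests on 1 of its 2 probes.

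**Figure D2:**
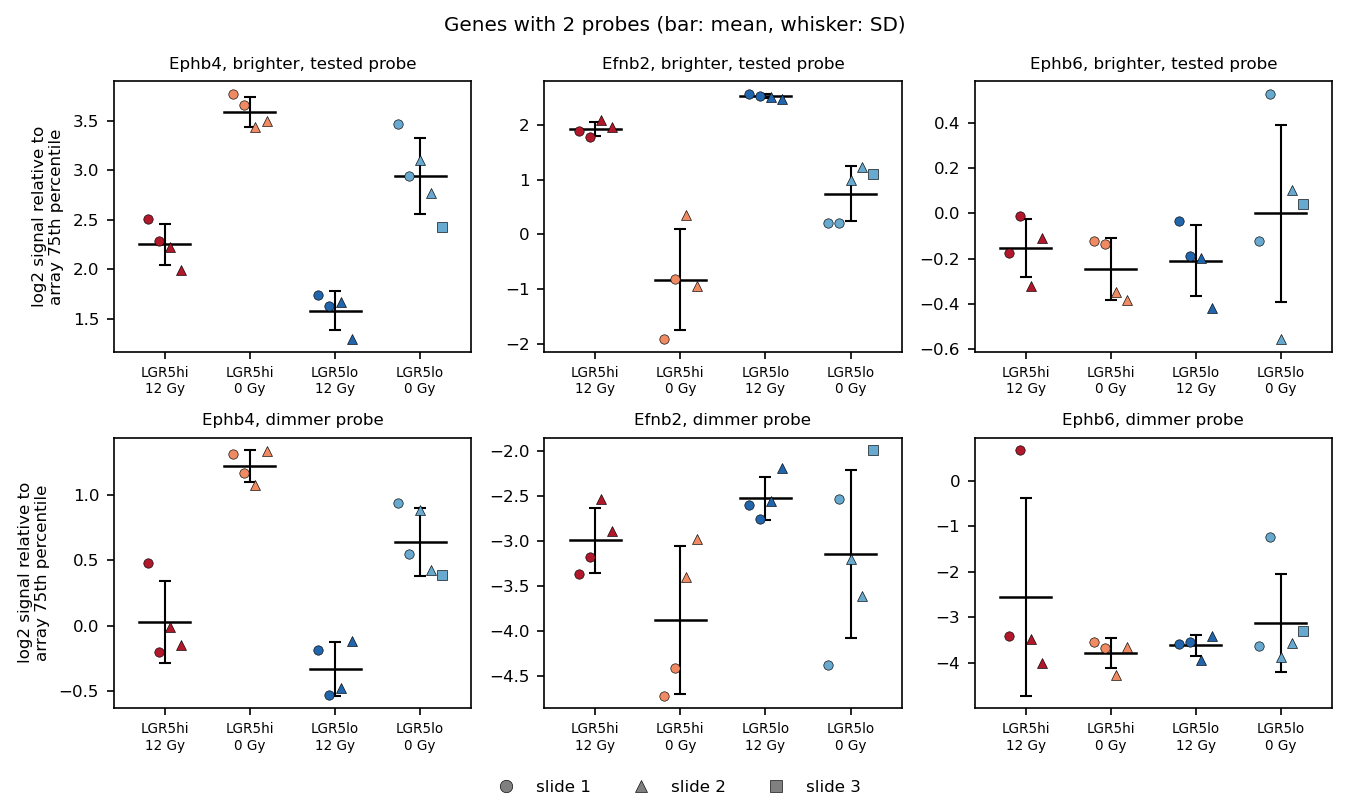
Log2 signal relative to the array's 75th percentile for the brighter, tested probe (top) and the dimmer probe (bottom) of Ephb4, Efnb2 and Ephb6, 1 point per array, with group means and standard deviations. Both probes of Ephb4 were lower in irradiated cells, whereas the difference of Efnb2 after 12 Gy was 2.75 log2 on its brighter and 0.89 log2 on its dimmer probe in LGR5hi cells.

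Efna4, a lipid-anchored A-class ligand, fell in LGR5hi cells. Its log2 signal there was 1.39, 1.17, 1.36 and 1.28 on irradiated arrays, against 2.09, 1.86, 1.80 and 2.02 on non-irradiated ones. The groups did not overlap, and the difference was -0.64 ± 0.16 log2 (adjusted p = 0.0122 by limma), with -0.70 within slide 1 and -0.59 within slide 2. In LGR5lo cells it was 0.22, 0.20, 0.56 and 0.59 on irradiated arrays, against 0.98, 0.39, 0.92, 0.61 and 0.43 on non-irradiated ones, which overlap (-0.27 ± 0.15 log2, adjusted p = 0.275). With arrays centred on their medians the LGR5hi difference was -0.66 and was not called (adjusted p = 0.622).

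The receptors best known from the crypt base did not pass the test in either sort. Ephb3 read 4.92, 5.60, 4.85 and 5.71 on irradiated LGR5hi arrays, against 5.43, 5.19, 5.21 and 5.45 on non-irradiated ones, and the groups overlap (-0.05 ± 0.26 log2, 95% interval -0.60 to 0.50, adjusted p = 0.951). In LGR5lo cells Ephb3 read 4.10, 4.45, 4.21 and 4.79 on irradiated arrays, against 4.92, 3.98, 4.79, 5.19 and 4.55 on non-irradiated ones (-0.30 ± 0.25 log2, adjusted p = 0.443).
The 60-base Ephb3 probe, at chr16:21223165-21223224 on the + strand in mm9, ends in a repeat of TG that runs over 33 bases, and its last 30 bases lie within it (capitals mark the repeat).
Ephb3 probe, last 30 bases: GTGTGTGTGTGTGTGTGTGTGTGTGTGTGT
Whether transcripts other than Ephb3 add to its signal was not tested. Ephb2 read 0.27, 0.15, 0.16 and 0.17 on irradiated LGR5hi arrays, against 0.02, 0.06, -0.03 and 0.01 on non-irradiated ones. These groups did not overlap, but the difference was small at 0.17 ± 0.20 log2 (95% interval -0.26 to 0.61, adjusted p = 0.733 by limma). In LGR5lo cells the Ephb2 difference was 0.05 ± 0.19 log2, with non-irradiated arrays spread from -0.46 to 0.75.

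The other 3 members did not pass the test after irradiation. Efna1, a lipid-anchored ligand of Epha2, averaged 2.92 ± 0.32 on irradiated and 3.52 ± 0.27 on non-irradiated LGR5hi arrays (SD, n = 4 each), a difference of -0.61 ± 0.25 log2 (adjusted p = 0.143 by limma). It was called with sex as a covariate (-0.61, adjusted p = 0.0274) and with array weights (-0.70, adjusted p = 0.00662). Efnb1, the transmembrane ligand ephrin-B1, averaged 4.36 ± 0.30 on irradiated and 4.08 ± 0.09 on non-irradiated LGR5hi arrays (SD, n = 4 each). On LGR5lo arrays Efnb1 averaged 4.49 ± 0.10 with irradiation (n = 4) and 4.30 ± 0.30 without (n = 5). Its difference was 0.28 ± 0.18 log2 in LGR5hi and 0.20 ± 0.17 log2 in LGR5lo cells (adjusted p = 0.413 and 0.463 by limma). On LGR5lo arrays Efna1 differed by -0.07 ± 0.24 log2 (adjusted p = 0.872). Ephb6, a receptor without kinase activity, read -0.32 to -0.01 on irradiated and -0.38 to -0.12 on non-irradiated LGR5hi arrays. It differed by 0.09 ± 0.19 log2 in LGR5hi and by -0.21 ± 0.18 log2 in LGR5lo cells. The dimmer Ephb6 probe differed by 1.23 ± 0.79 log2 in LGR5hi (adjusted p = 0.441) and by -0.49 ± 0.75 log2 in LGR5lo cells (adjusted p = 0.684).

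**Figure D3:**
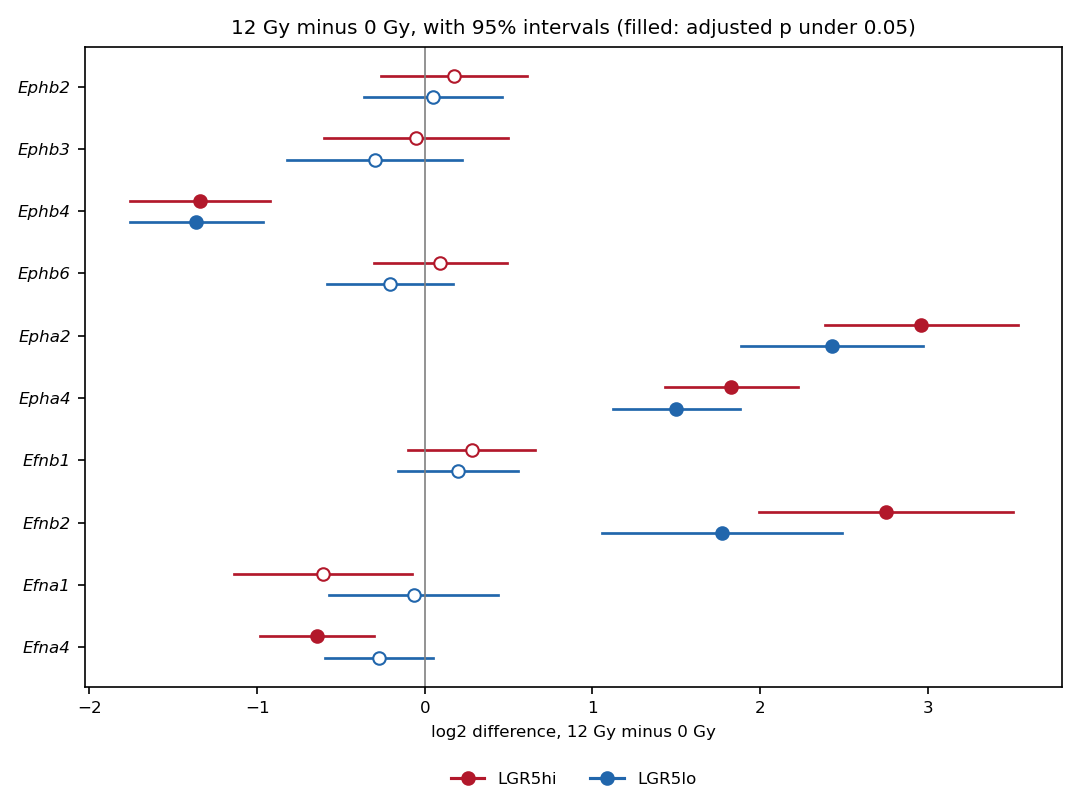
Log2 difference of irradiated minus non-irradiated cells for each member in LGR5hi (red) and LGR5lo (blue) cells, with 95% intervals from limma and filled points where the adjusted p is under 0.05. Epha2 has the largest difference in LGR5hi cells at 2.96, and the 2 intervals of each member overlap.

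Whether the response depended on the sort was tested as the difference between the irradiation effects, LGR5hi minus LGR5lo. None of the 10 members was called by limma, and none had an unadjusted p under 0.05, whereas 0.0396% of all genes were called (0.036% higher and 0.0036% lower) and 1890 of 27771 had an unadjusted p under 0.05. The members with the largest differences were Efnb2 at 0.98 ± 0.49 log2 (95% interval -0.06 to 2.02), Efna1 at -0.54 ± 0.34 and Epha2 at 0.53 ± 0.37, each with an adjusted p of 0.715. Ephb4 differed by 0.02 ± 0.27 log2 (95% interval -0.56 to 0.60). These intervals allow differences of more than 1.5-fold between the sorts for each of these 4 genes.

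LGR5hi cells were next compared with LGR5lo cells within each arm, which asks how Eph and ephrin genes relate to the level of the stem cell reporter. After 12 Gy, 2 of 10 members were higher in LGR5hi cells (Efna4 and Epha4) and none was lower, against 2.21% and 4.09% of all genes (6.31% in either direction). Without irradiation 4 members were higher in LGR5hi cells (Efna4, Efna1, Epha4 and Ephb4) and 1 was lower (Efnb2), against 4.61% and 4.93% of all genes (9.54% in either direction). The members' median difference was 0.56 log2 after 12 Gy and 0.36 without irradiation, where that of all genes was 0.05 and -0.08. Same-numbered arrays of both sorts within an arm deviated together, and the fits with arm and number as a fixed block are therefore given where they change a call. Only 1 member call was lost with this block and 2 were gained.

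Efna4 was higher in LGR5hi cells in both arms and had the smallest adjusted p of the members. The values listed above did not overlap between the sorts in either arm, and the difference was 0.91 ± 0.16 log2 after 12 Gy (adjusted p = 0.00217 by limma) and 1.28 ± 0.15 log2 without irradiation (adjusted p = 5.15e-05 by limma). It was higher in LGR5hi cells in 4 of 4 same-numbered pairs of each arm. Within slides 1 and 2 the difference was 1.07 and 0.74 log2 after 12 Gy, and 1.29 and 1.15 log2 without irradiation. Neither slide alone gave a call for Efna4 in either arm. Its call after 12 Gy was also lost with median centring (adjusted p = 0.626). Epha4 was also higher in LGR5hi cells in 4 of 4 pairs of each arm. Its sorts did not overlap after 12 Gy, where the difference was 0.99 ± 0.19 log2 (adjusted p = 0.00385 by limma). Without irradiation they overlapped, and 0.66 ± 0.18 log2 (adjusted p = 0.0292) became 0.62 with the block (adjusted p = 0.0601). That call was also lost without non-irradiated LGR5hi replicate 1, 3 or 4 or LGR5lo replicate 5, with adjusted p of 0.0613, 0.0807, 0.106 and 0.0718. Other settings that lost it were quantile normalization (adjusted p = 0.0863), median centring (0.102), normexp background correction (0.0962), array weights (0.109) and only the compared groups (0.158). After 12 Gy the Epha4 call was lost with quantile normalization (adjusted p = 0.265) and with median centring (0.448).

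Efna1 read 2.64, 3.35, 2.70 and 2.98 on irradiated LGR5hi arrays, against 2.30, 2.53, 2.30 and 2.53 on irradiated LGR5lo arrays. Without irradiation it read 3.88, 3.25, 3.58 and 3.38 on LGR5hi arrays, against 3.09, 1.79, 2.86, 2.47 and 2.20 on LGR5lo arrays. LGR5hi arrays lay above all LGR5lo arrays in both arms. The difference was called without irradiation (1.04 ± 0.24 log2, adjusted p = 0.0111 by limma) but not after 12 Gy (0.50 ± 0.25 log2, adjusted p = 0.319). Without the rebuilt array the difference without irradiation was 0.92 (adjusted p = 0.0518). This Efna1 call was also lost with median centring (adjusted p = 0.0715), normexp background correction (0.118) or only the compared groups in the fit (0.085). Slides 1 and 2 alone gave no call either (adjusted p = 0.527 and 0.198 by limma).

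Efnb2 was the member that was lower in LGR5hi cells. All 4 same-numbered pairs were lower in LGR5hi cells in each arm, by 0.43 to 0.75 log2 after 12 Gy and by 0.64 to 2.15 log2 without irradiation. As groups, the sorts did not overlap after 12 Gy. They did overlap without irradiation, where LGR5hi arrays reached up to 0.35 and LGR5lo arrays down to 0.20. The difference was -0.59 ± 0.35 log2 after 12 Gy (adjusted p = 0.444 by limma) and -1.57 ± 0.34 log2 without irradiation (adjusted p = 0.00752 by limma). Within slides 1 and 2 the difference without irradiation was -1.56 and -1.40 log2 (-1.20 over both without the rebuilt array). Neither slide alone gave a call (adjusted p = 0.221 and 0.219 by limma). The Efnb2 call was also lost with median centring (adjusted p = 0.192), normexp background correction (0.075) or only the compared groups in the fit (0.092). With its dimmer probe the difference without irradiation was -0.74 ± 0.43 log2 (adjusted p = 0.323), and after 12 Gy it was -0.47 ± 0.46 log2 (adjusted p = 0.753).

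Ephb3 and Ephb4 were higher in LGR5hi cells in 4 of 4 pairs of each arm. As groups, the sorts of both genes did not overlap after 12 Gy but overlapped without irradiation. For Ephb3 the difference was 0.88 ± 0.26 log2 after 12 Gy (adjusted p = 0.0565 by limma) and 0.64 ± 0.25 log2 without irradiation (adjusted p = 0.118 by limma). For Ephb4 it was 0.67 ± 0.20 log2 after 12 Gy (adjusted p = 0.0557 by limma) and 0.65 ± 0.19 log2 without irradiation (adjusted p = 0.0382 by limma). With the block, both were called after 12 Gy, with adjusted p of 0.0191 for Ephb3 and 0.0157 for Ephb4, which makes 4 members. The dimmer probe of Ephb4 gave 0.36 ± 0.18 log2 after 12 Gy (adjusted p = 0.38) and 0.58 ± 0.17 log2 without irradiation (adjusted p = 0.0549), and was called in neither arm. Without the block, Ephb3 was called after 12 Gy when non-irradiated LGR5lo replicate 2 or 4, irradiated LGR5hi replicate 3 or irradiated LGR5lo replicate 4 was left out, and Ephb4 when non-irradiated LGR5lo replicate 1, 2 or 5 was. The Ephb4 call without irradiation was lost without any 1 of 7 arrays (non-irradiated LGR5hi replicates 1, 2 and 4, non-irradiated LGR5lo replicates 4 and 5, and replicate 3 of irradiated LGR5hi or LGR5lo), and its adjusted p ranged from 0.00771 to 0.126 over the 17 omissions.

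Ephb2 did not differ between the sorts in these data by the test. Its difference was 0.12 ± 0.20 log2 after 12 Gy (95% interval -0.31 to 0.56) and -0.002 ± 0.19 log2 without irradiation (95% interval -0.41 to 0.41). Ephb2 was nevertheless higher in LGR5hi cells in 4 of 4 same-numbered pairs after 12 Gy, and in 3 of 4 without irradiation. Epha2 was higher on all irradiated LGR5hi arrays than on any irradiated LGR5lo array, by 0.61 ± 0.27 log2 (adjusted p = 0.24 by limma), and differed by 0.08 ± 0.26 log2 without irradiation. Efnb1 and Ephb6 were not called in either arm, with differences between -0.25 and 0.05 log2. The dimmer Ephb6 probe gave 1.06 ± 0.79 log2 after 12 Gy and -0.66 ± 0.75 log2 without irradiation, neither called.

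**Figure D4:**
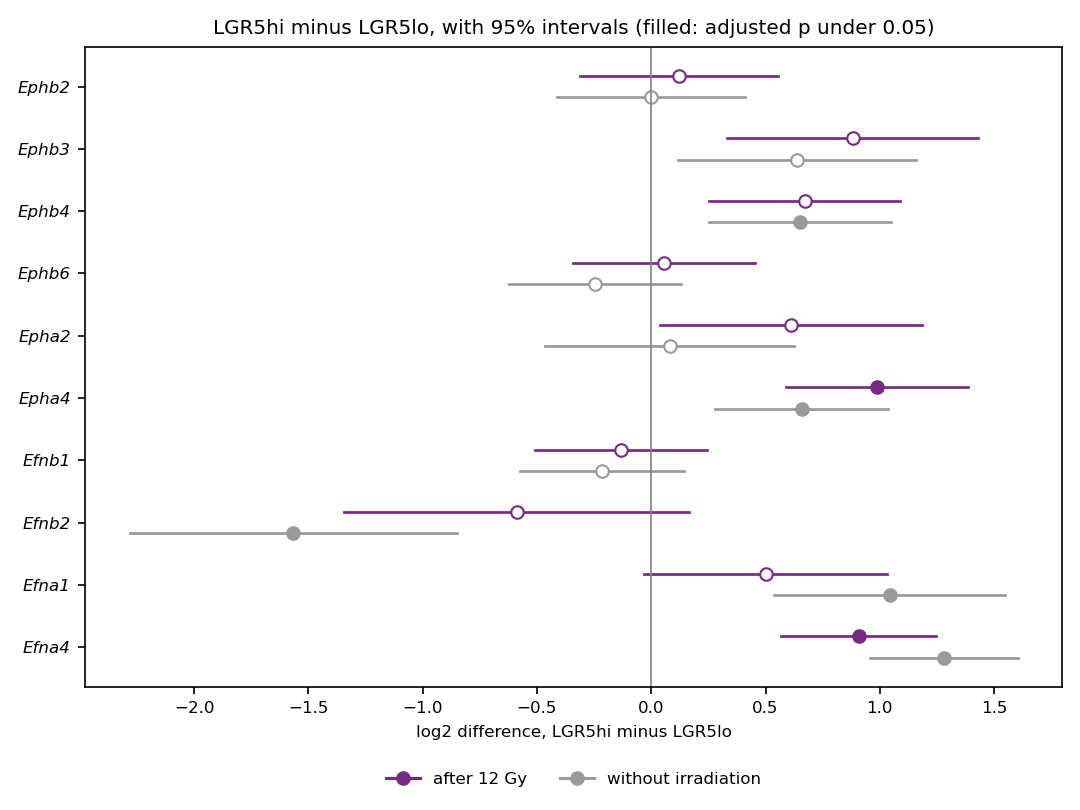
Log2 difference of LGR5hi minus LGR5lo for each member after 12 Gy (purple) and without irradiation (grey), with 95% intervals from limma and filled points where the adjusted p is under 0.05. Efna4 and Epha4 are filled in both arms, and Efnb2 is the member furthest below 0, at -1.57 without irradiation.

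Markers of other cell types moved with the sort and with irradiation. Between the sorts, 6.31% of all genes were called after 12 Gy and 9.54% without irradiation. The summed levels given here weight the brightest probes of a list most. The enteroendocrine markers (6 of 6 measured) were all lower in LGR5hi cells in both arms, and their summed level relative to the 75th percentile was 22.2 to 28.5 against 433 to 715 after 12 Gy, and 17.3 to 37.3 against 275 to 388 without irradiation. Of the goblet markers 4 of 5 measured were lower in LGR5hi cells in both arms, and their summed level was 556 to 594 against 2102 to 2896 after 12 Gy, and 493 to 778 against 1400 to 3408 without irradiation. Tuft markers were lower in LGR5hi cells for 3 of 4 after 12 Gy and for 4 of 4 without irradiation. None of 5 measured Paneth, 8 enterocyte or 5 measured stromal markers was called in any comparison. Of 7 leukocyte markers 1 was called, lower in irradiated LGR5lo cells. Without a call, all 8 enterocyte markers still read lower in LGR5hi cells in both arms (median -0.88 log2 after 12 Gy, -0.60 without irradiation). All 5 measured Paneth markers did so after 12 Gy (median -0.85 log2). Enterocyte markers also varied among LGR5hi arrays, averaging 1.4 to 4.1 log2 on irradiated and 0.9 to 5.1 log2 on non-irradiated ones. All 8 stem cell markers, which include Lgr5 itself, were higher in LGR5hi cells in both arms. The part of these cell types in the differences of Efnb2, Efna4 and the other members was not tested. After 12 Gy, several lists moved, where 13.5% of all genes were called in LGR5hi and 7.49% in LGR5lo cells. Of the 8 stem cell markers 6 fell in LGR5hi cells and 4 in LGR5lo cells. Of the 6 enteroendocrine markers 2 rose in LGR5hi cells, and 2 rose and 1 fell in LGR5lo cells. Of 4 markers of epithelium 2 rose in LGR5hi cells and 1 in LGR5lo cells. In LGR5hi cells the summed level of epithelium markers was 1092 to 1348 with irradiation and 557 to 599 without. In LGR5lo cells it was 910 to 1133 with irradiation and 460 to 979 without. Krt8 and Krt18 had the brightest probes of the 4, averaging 9.25 and 9.13 log2 on irradiated LGR5hi arrays. Epcam went the other way in LGR5hi cells, at 4.55 log2 with irradiation and 4.80 without (not called). The part of these lists in the changes of Epha2, Epha4, Efnb2 and Ephb4 was not tested. Of the endothelial markers, checked because Efnb2 and Ephb4 are also vessel genes, 4 of 7 were measured and none was called in any comparison. Their summed level was 17.7 to 23.6 in irradiated and 15.7 to 20.0 in non-irradiated LGR5hi cells. In LGR5lo cells it was 13.9 to 18.2 with irradiation and 13.4 to 31.5 without. This sum mostly follows the Kdr probe, which averaged 4.29 log2 on irradiated LGR5hi arrays, where Pecam1 averaged -2.04 and Cldn5 -4.15. Of these markers Pecam1 and Kdr were above background on 16 of 16 arrays, Cldn5 on 12, Tek on 8, and Cdh5, Tie1 and Emcn on 1 each, and the part of endothelial cells in the differences of Efnb2 and Ephb4 was not tested.

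The other Eph and ephrin genes of the array gave 8 tested of 12. In LGR5hi cells Efna5, another A-class ligand, rose after 12 Gy, and none of the rest was called on its tested probe. That is 1 of 8, near the 13.5% of all genes called there. Efna5 read -2.07, -2.04, -2.52 and -2.87 on irradiated arrays, against -3.40, -3.64, -3.79 and -3.72 on non-irradiated ones, without overlap (1.26 ± 0.29 log2, adjusted p = 0.00818 by limma). In LGR5lo cells none of the 8 was called, where 7.49% of all genes were, and Efna5 differed by 0.18 ± 0.28 log2. The probes of Efna3, also an A-class ligand, differ in which comparisons are called, and in sign between the sorts without irradiation. Its tested probe was called in no comparison and gave 0.45 ± 0.26 log2 for irradiation in LGR5hi cells (adjusted p = 0.359). Its dimmer probe gave 0.62 ± 0.14 log2 there (adjusted p = 0.00573 by limma over all kept probes). On the dimmer probe LGR5hi cells were higher than LGR5lo cells by 0.83 ± 0.14 log2 after 12 Gy (adjusted p = 0.00138) and by 0.47 ± 0.13 log2 without irradiation (adjusted p = 0.0371). In the same fit over all kept probes, the tested probe gave 0.43 ± 0.27 log2 after 12 Gy and -0.42 ± 0.25 log2 without irradiation. A dimmer probe of Epha5, a receptor of A-class ephrins, was lower in LGR5hi cells without irradiation (-1.77 ± 0.48 log2, adjusted p = 0.0352), where its tested probe gave 0.46 ± 0.23 log2 (adjusted p = 0.216).

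Of 39 partners of Eph signalling, 2 rose and 5 fell in LGR5hi cells and 3 rose and 3 fell in LGR5lo cells after 12 Gy, with a median difference of 0.003 and 0.01 log2, where that of all genes was -0.02 and -0.13. Over all genes 13.5% were called in LGR5hi and 7.49% in LGR5lo cells. Grb7, an adaptor that binds activated Eph receptors, fell by 1.71 ± 0.20 log2 in LGR5hi and by 1.10 ± 0.19 log2 in LGR5lo cells (adjusted p = 2.17e-05 and 0.0016 by limma). Inppl1, the lipid phosphatase SHIP2 that binds Epha2, fell by 1.23 ± 0.16 log2 in LGR5hi and by 0.66 ± 0.15 log2 in LGR5lo cells. Rgs3, a regulator of G-protein signalling that acts below ephrin-B ligands, rose by 1.23 ± 0.19 log2 in LGR5hi and by 0.94 ± 0.18 log2 in LGR5lo cells. Ngef, the exchange factor ephexin that binds Epha4, fell by 1.78 ± 0.25 log2 in LGR5hi cells, and differed by -0.69 ± 0.24 log2 in LGR5lo cells (adjusted p = 0.0987). In LGR5lo cells the fourth by p was Dvl2, a WNT and ephrin-B adaptor, which fell by 0.46 ± 0.12 log2. Between the sorts, 7 partners were higher and 1 was lower in LGR5hi cells without irradiation, and none was higher and 1 was lower after 12 Gy, where 9.54% and 6.31% of all genes were called.

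Ephb2 and Ephb3 are textbook targets of WNT signalling and were set beside 15 other such targets. Of these, 11 were higher in LGR5hi cells in both arms and none was lower. The 15 had a median difference of 1.40 log2 after 12 Gy and 1.499 log2 without irradiation. Ephb2 had 0.12 and -0.002, and Ephb3 had 0.88 and 0.64. Lgr5 is among the 11, and its difference follows from the sort by its reporter. Lgr5, Ascl2 and Axin2 are also stem cell markers above, so the counts of both lists are not independent. Over all genes 6.31% were called after 12 Gy and 9.54% without irradiation. After irradiation 2 targets rose and 5 fell in LGR5hi cells, and 3 rose and 5 fell in LGR5lo cells, where 13.5% and 7.49% of all genes were called. Lgr5 fell by 1.53 ± 0.29 log2, Ascl2 by 0.94 ± 0.23 and Axin2 by 0.99 ± 0.25 in LGR5hi cells. In LGR5lo cells they fell by 1.27 ± 0.28, 1.07 ± 0.22 and 1.01 ± 0.23 log2. Cd44, an adhesion receptor, rose by 1.89 ± 0.18 log2 in LGR5hi and by 2.24 ± 0.17 log2 in LGR5lo cells.

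Members were also compared by how they varied among arrays of the same group, over the 17 deviations from group means. Epha2 and Ephb3 varied together with r = 0.76, and Ephb3 and Efna1 with r = 0.704. Ephb6 and Efna4 varied in opposite directions with r = -0.674, while Ephb2 and Ephb3 had r = 0.0808. Non-irradiated LGR5lo replicate 2 was the lowest of its group for Epha2, Ephb3, Efna1 and Efna4 and the highest for Ephb6. These r include that array, and r without it was not computed for pairs of members. Among 17898 named genes, the closest to Epha2 were Rapgef2 (r = 0.958), Srf (r = 0.929) and Tlk2 (r = 0.926). The closest to Epha4 were Palb2, Poglut2 and Rbm7, with r from 0.796 to 0.849. Those closest to Ephb2 were Ghrh, Olfr319 and Ildr2, with r from 0.925 to 0.945, and to Ephb3 they were Plekhg3, Skint7 and Mcam, with r from 0.97 to 0.973. Efnb1 was closest to Cnr2, Fam193a and AI661453 (r from 0.941 to 0.977) and Efna1 to Tmem35b, Paqr5 and Bloc1s2 (r from 0.948 to 0.959). These arrays share slides and 1 array that stood apart, and without it the r of Srf with Epha2 was 0.849 and that of Fam193a with Efnb1 was 0.915.

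Over the 4 group means, a description of 4 points, many genes match any pattern. Only genes whose group means passed a minimum spread were compared, a limit not set on the members. Epha2 was closest to Zmynd15, Prrg4 and Rap2b, and 203 of 5170 genes had r over 0.99 with it. Epha4 was closest to Ddx31, Tnfrsf11b and Gpx2, with 100 genes over 0.99. Ephb2 was closest to Csgalnact1, Frmpd1 and Rnd1, Ephb3 to Casp12, Pxdn and 1110028F11Rik, Efnb1 to Glt28d2, Tgfb1 and Gadd45g, and Efna1 to Tspyl5, Cep72 and Sdr16c5, with 13 to 27 genes over 0.99 for each. The group means of Ephb2 ran only from 0.02 to 0.19 log2. No difference of Ephb2 or Efnb1 was called, so their closest genes match patterns that did not pass the test.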

How the data were processed

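RNA of 17 sorted samples was measured on 1-colour Agilent arrays. The deposited scanner files hold linear intensity per spot, which the authors obtained with background subtraction in version 10.7.3.1 of Agilent's Feature Extraction, per the file headers. A series table, also deposited by the authors, gives log2 values; set against the scanner signals, these equal the log2 signal relative to the array's upper quartile less a constant for each probe, within 0.02 log2 for 99.7% to 99.9% of probes on the 16 whole arrays. For non-irradiated LGR5hi replicate 1 only 15328 of 62976 spots could be read from the scanner file (column unit other). Its probe values were recovered by adding to the table's entry the probe's offset between scanner and table, the median over the whole arrays, and after removal of a constant they met the readable part within 0.02 log2 for 100% of 13422 probes. Its level was then checked: the 75th percentile of these probes minus that of the array was -0.07, within -0.11 to 0.07 on the 16 others.

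Signals were scaled to the 75th percentile of their array and taken to log2 after control spots and outlier spots were left out. Probes well above background on at least 4 of 16 arrays were kept, and where several probes of a gene were kept, the one brightest on average was tested, and the members' other probes are reported beside it. Group means of all 17 arrays were fitted with limma 3.58.1 (lmFit and eBayes, R 4.3.3), with Benjamini-Hochberg adjustment over 27771 genes and a threshold of 0.05, and the fit was tested on simulated data. Other steps used Python 3.11.15 with pandas 2.3.3 and matplotlib 3.10.9. Gene names follow RefSeq where an accession matched (27235 probes), and all 10 members had an upstream window there. Array number limits the precision.

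Replicate numbers in the labels were checked for pairing. Same-numbered LGR5hi and LGR5lo arrays of an arm deviated together (r from 0.174 to 0.456 with irradiation and from 0.121 to 0.346 without), so the number was used as a block within an arm. Across arms the correlations ran from -0.0997 to 0.22, and no block was used. Same-numbered arrays of an arm also shared slide and sex, while same-numbered arrays of different arms differed in sex. A shared mouse, a shared slide and a shared sex therefore cannot be told apart by these correlations. Replicates 1 and 2 of each group shared slide 1, replicates 3 and 4 slide 2, and non-irradiated LGR5lo replicate 5 was on slide 3.

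The genes named are all members, called genes among the other Eph and ephrin genes, the 4 signalling partners with the smallest p in each irradiation comparison, Lgr5, Ascl2, Axin2 and Cd44, 3 p53 targets, and the 3 genes closest to each of 6 members by correlation. The members and lists were chosen with earlier results of these data known. Alternatives in normalization, background correction, filter, probe choice, variance model, weights, blocks, slides and omitted arrays were tried.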

Additional observations from a re-analysis of the deposited data

Results flagged for a closer look

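Dixon's test on the arrays of each group was applied to 13 probes in 4 groups. It marked 4 of 52 sets, and chance marks about 1 in 20. On the dimmer probe of Ephb6, irradiated LGR5hi replicate 2 read 0.67 log2 relative to the 75th percentile, while the other 3 arrays of that group lay between -3.99 and -3.40. On the same probe non-irradiated LGR5lo replicate 2 read -1.24, while the other 4 arrays lay between -3.87 and -3.31. The brighter probe of Ephb6, used in the tests, showed neither. Efnb1 on non-irradiated LGR5lo replicate 2 read 3.76, below the other 4 arrays at 4.36 to 4.51. That array is the one with 95.6% of probes above background. Ephb2 on irradiated LGR5hi replicate 1 read 0.27, above the other 3 arrays at 0.15 to 0.17, a gap of about 0.1 log2 in a group with a standard deviation of 0.06. None of these 4 values belongs to a gene called in any comparison.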

How the results depend on the processing

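Over all alternatives run, no called difference of a member changed sign. Of the members' single values under the alternatives, 1626 stayed on the same side of the threshold, 62 lost a call and 32 gained one. With 1 array left out at a time, the number of members called stayed at 5 for irradiation in LGR5hi cells, at 4 in LGR5lo cells and at 0 for the difference of these effects, and ranged from 2 to 5 for LGR5hi minus LGR5lo without irradiation and from 2 to 4 after 12 Gy. Epha2, Epha4 and Efnb2 were called after irradiation in LGR5hi cells in all 34 settings run, the alternatives together with the reported fit. With arrays centred on their medians, 3 members were called for irradiation in LGR5hi cells, 1 for the sorts without irradiation and 0 after 12 Gy. That centring moved the median of all genes to 0.40 log2 for irradiation in LGR5lo cells and to 0.39 for the sorts without irradiation, against -0.13 and -0.08. It also turned the calls over all genes to 916 higher and 74 lower in irradiated LGR5lo cells (1242 and 838 as reported), 803 and 437 in LGR5hi cells (1717 and 2023), and 96 and 576 for the sorts after 12 Gy (615 and 1136). Slide 1 alone, with 2 arrays a group, called 3 members for irradiation in LGR5hi cells and 0 in LGR5lo cells, and either slide alone called 0 between the sorts in both arms. For the sorts without irradiation, 5 members were called as reported, 3 with quantile normalization or array weights, and 1 with normexp background correction or with the compared groups only in the fit. Without both the rebuilt array and non-irradiated LGR5lo replicate 2, an alternative chosen after seeing the data, 2 were called there and 4 after 12 Gy. For the sorts after 12 Gy, 2 were called as reported, 4 with the stricter filter, with trended and robust variance or with the replicate block (number over all arrays, or arm and number as a fixed or random block), and 5 with array weights or the compared groups only. The block changed no other call than those given in the report, apart from Efna1 without irradiation with the number over all arrays (adjusted p = 0.0518) and Ephb3 without irradiation with the random block (adjusted p = 0.05). Without non-irradiated LGR5hi replicate 1, 2 members were called between the sorts without irradiation, and without its replicate 4 or non-irradiated LGR5lo replicate 5, 3 were. Without non-irradiated LGR5lo replicate 2, 4 were called after 12 Gy. The cause was not tested in any of these cases. Groups of 4 or 5 arrays and 1 probe for 7 of the 10 genes limit what these arrays can show.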
